A study of Mus musculus with 25 samples.

Results

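A set of 7 genes of the astrocyte endfoot and of the astrocyte gap junction network was followed in mouse spinal cord after contusion and in cultured mouse astrocytes: Aqp4, Kcnj10, Gja1, Gjb6, Gjb2, Mlc1 and Hepacam. They were chosen by name, and all 7 were found among the 43693 genes of the sorted-cell table and in each of the 4 count tables, which together hold 25 RNA-seq libraries. Sorted cells came from GFAP-Cre-/+:R26-tdT-/+ mice, in which the red reporter tdTomato stays on in any cell that uses or once used the GFAP-driven Cre. Epicentre cord was digested with papain and trypsin, cleared of myelin with beads, and tdTomato-positive cells were collected by flow cytometry. The sorted groups were sham (T9 laminectomy only, taken at 7 days, 3 libraries) and 7 days (3), 1 month (3) and 3 months (2) after a moderate T9 contusion of 60 kdyn. The 1-month and 3-month groups therefore differ from sham not by injury alone but also by the time since surgery. Tissue libraries were undigested epicentre cord of C57BL/6 mice 1 month (3) and 3 months (3) after the same injury, with no sham tissue among them. Each sorted or tissue replicate pooled 3 mice, and the labels give no age of these animals apart from the time after surgery. Cultures were C57BL/6 brain astrocytes of P4 to P7 pups, given a control or a knockdown lentivirus against Zeb2os (2 and 2 libraries) or against Zeb2 (2 and 2) and selected with puromycin at 1 µg/ml. The labels write the knockdown genotypes as "-/-" although the agent is a knockdown virus, and they start puromycin at 24 h in the Zeb2os set and at 48 h in the Zeb2 set. Nothing in them says that the 2 libraries of a culture group were separate cultures, so p-values there measure only the spread between these libraries, which may be technical.

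Endfeet are the astrocyte processes that wrap blood vessels and line the cord surface. Aquaporin-4, the product of Aqp4, is the water channel of the endfoot membrane, where the dystrophin complex anchors it, and the inward rectifier potassium channel encoded by Kcnj10 takes up potassium released by active neurons in the same membrane. Mlc1 encodes a membrane protein of astrocyte contacts around vessels, and Hepacam (GlialCAM) encodes the adhesion protein that carries Mlc1 and the chloride channel ClC-2 to those contacts; mutations in either human gene cause a leukodystrophy with swollen white matter. Gja1, Gjb6 and Gjb2 encode the connexins through which astrocytes pass ions and small molecules to each other. Gjb2 is also a connexin of the leptomeninges, the thin membranes around the cord.

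Total counts were 15.7 to 50.2 M in sorted libraries, 15.4 to 27.1 M in tissue, 45.6 to 158.1 M in the Zeb2os set and 29.0 to 65.4 M in the Zeb2 set. The labels call the sorted cells astrocytes, and all 15 astrocyte markers were detected in every group. The summed astrocyte markers stood at 5153 to 7107 counts per M (CPM) in sham sorted cells and 15020 to 16490 CPM in 1-month tissue. Gfap alone averaged 240.6 CPM in sham sorted cells and 8482 CPM in 1-month tissue, so this gap lay largely in Gfap. The tissue was also injured while the sham cells were not, and each table has its own CPM scale. However, 10 markers of oligodendrocyte precursors summed to 9197 to 10890 CPM in sham sorted cells against 794 to 818 CPM in 1-month tissue. Sorted values are thus not those of astrocytes alone. With injury the summed astrocyte markers went down: the 7-day libraries held 2779 to 3100 CPM of them, the 1-month libraries 1849 to 1937 CPM and the 3-month libraries 1746 to 1885 CPM. By the test used below, 11 of the 15 were lower at 7 days and 1 was higher: Gfap averaged 240.6 ± 100.0 CPM in sham, 1271 ± 155 at 7 days (log2 2.40 ± 0.25 against sham, adjusted p = 9.44e-06) and 232.9 ± 33.4 at 1 month (SD, n = 3 each). From 7 days to 1 month the 15 markers had a median log2 change of only -0.06, with 2 called lower and 1 higher. Gfap was 1 of the 2 (-2.45 ± 0.25), and the drop of the sum over that step lay largely in Gfap. The 10 ependymal markers also went down, from 1538 to 2635 CPM in sham to 503 to 588 at 7 days, and the 12 microglia and macrophage markers went up, from 396 to 1628 CPM to 4387 to 6809, with 10 of 10 ependymal genes lower and 9 of 12 microglia genes higher. Endothelial markers summed to 75.9 to 253.4 CPM in sham and 642.6 to 746.0 at 7 days (10 of 10 higher), fibroblast and mural markers to 148.1 to 602.2 and 3195 to 3391 CPM (5 of 10 higher), and immediate early genes to 11980 to 26340 and 6777 to 7162 CPM (10 of 10 lower). Oligodendrocyte precursor markers summed to 10310 to 11810 CPM at 7 days, with 1 of 10 higher and 1 lower. Their sums were 11590 to 11980 CPM at 1 month and 7317 to 8893 CPM at 3 months. In these bulk libraries fewer cells of a type and less RNA per cell cannot be told apart, and the part of cell make-up in the results that follow was not tested.

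In GRCm38, Kcnj10 lies on the plus strand at chr1:172341210-172374085, Gja1 on the plus strand at chr10:56377330-56402513 and Hepacam on the plus strand at chr9:37367351-37386575. Mlc1 lies on the minus strand at chr15:88955884-88979007. Gjb2 (chr14:57098600-57104702) and Gjb6 (chr14:57123303-57133611) are neighbours on the minus strand, 18.6 kb apart, with 1 coding gene annotated between them. After injury both connexins fell at 7 days, Gjb6 by far more, and later Gjb6 stayed below sham while Gjb2 did not. The higher Gjb2 was not called at 1 month, and its call at 3 months rests on 1 library. Their promoter windows are shown, 250 bases before to 50 bases after the annotated start, 5′ to 3′ along the gene (RefSeq, GRCm38.p6). Capitals mark CACCTG or its reverse complement, the E-box letters that ZEB-type zinc fingers such as Zeb2 recognise and that are also a subset of the general E-box. The Gjb6 window is chr14:57133562-57133861 and the Gjb2 window chr14:57104653-57104952, both minus strand.
Gjb6: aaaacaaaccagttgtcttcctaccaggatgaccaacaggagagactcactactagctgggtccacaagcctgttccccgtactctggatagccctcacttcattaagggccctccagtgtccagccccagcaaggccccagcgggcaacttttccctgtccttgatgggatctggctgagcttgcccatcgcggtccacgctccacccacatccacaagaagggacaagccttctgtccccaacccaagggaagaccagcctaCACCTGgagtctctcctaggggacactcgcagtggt
Gjb2: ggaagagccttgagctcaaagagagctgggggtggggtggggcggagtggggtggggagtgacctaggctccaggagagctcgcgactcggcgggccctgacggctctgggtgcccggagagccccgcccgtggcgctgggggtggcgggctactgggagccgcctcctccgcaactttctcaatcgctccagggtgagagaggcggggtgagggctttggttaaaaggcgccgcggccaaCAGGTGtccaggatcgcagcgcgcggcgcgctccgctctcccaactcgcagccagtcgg
Windows of 6 of the 7 genes were in the promoter table, and CACCTG was found on either strand in 4 of the 6, 1 time each, against 20.2% of all 32851 promoter windows. The match began 15 bases into the Gjb6 transcript and 9 bases before the Gjb2 start. The other 2 matches stood at -203 in Hepacam and -221 in Mlc1, counted from the RefSeq start. In both genes that start lies inside the gene span given above, so these 2 matches are before the RefSeq start but within the annotated gene. They are shown as 30-base stretches at chr9:37367391-37367420 (plus strand) and chr15:88978757-88978786 (minus strand).
Hepacam: gaaccactggacCACCTGagccccatagga
Mlc1: ttccaagacatcCACCTGgctagtgagcag
No CACCTG stood in the windows of Kcnj10 and Gja1. The AP-1 letters TGANTCA, searched the same way and present in 7.81% of all windows, occurred in Gja1 alone of the 6, 19 bases before its start. The GC box GGGCGG (35.7% of all windows) occurred 3 times in Kcnj10 and 2 times in Gjb2, and TATAAA (13.6%) in none of the 6. None of these matches overlapped another of the motifs searched. They are letters in a window, and binding was not measured.

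At 7 days after contusion all 7 genes were lower in sorted cells than in sham. By edgeR's quasi-likelihood test with Benjamini-Hochberg adjustment over 24286 genes, called at an adjusted p under 0.05, each of the 7 fell, where 8.41% of all tested genes fell. Their median log2 change was -1.45, against -0.06 over all tested genes. In no gene did the 7-day libraries overlap the sham libraries (15.9% of all tested genes were non-overlapping and lower).

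The steepest fall was in Gjb6. It stood at 192.9, 234.0 and 173.0 CPM in sham replicates 1 to 3 and at 6.20, 3.89 and 2.81 CPM at 7 days, the latter from 118 to 197 counts per library. This was 46.5-fold lower, a log2 change of -5.55 ± 0.47 (SE; edgeR adjusted p = 1.69e-06). Gja1 fell less, from 935.4, 712.2 and 719.8 CPM to 164.6, 134.3 and 121.0 CPM (log2 change -2.50 ± 0.23, edgeR adjusted p = 3.3e-06). Both connexins were far below every sham library in all 3 injured libraries. Gjb2, scarce in sham at 6.61, 7.01 and 8.53 CPM, fell to 4.25, 3.04 and 2.48 CPM (log2 change -1.18 ± 0.39, edgeR adjusted p = 0.0479). That call was marginal: it was lost without any of sham replicates 2 and 3 or 7-day replicates 1 to 3, at log2 changes of -0.98 to -1.42 and adjusted p of 0.0526 to 0.2.

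The water and potassium channel genes fell by much less. Aqp4 (chromosome 18, 15389496 to 15410982, minus strand, in GRCm38) is the only member whose span overlaps another annotated gene, an antisense transcript that shares none of its exons and was not analysed here. Aqp4 went from 506.3, 640.1 and 438.3 CPM to 368.4, 307.9 and 176.9 CPM (log2 change -0.89 ± 0.24, edgeR adjusted p = 0.017). Kcnj10 went from 933.7, 652.1 and 583.1 CPM to 458.4, 390.9 and 422.0 CPM (log2 change -0.77 ± 0.18, edgeR adjusted p = 0.00573). For both genes the highest injured library lay close below the lowest sham library. The Aqp4 call was lost without sham replicate 2 (adjusted p = 0.0597), 7-day replicate 2 (0.0537) or 7-day replicate 3 (0.0919), and the Kcnj10 call without 7-day replicate 2 (0.0527), with log2 changes of -0.60 to -0.93. In a fit of sham and 7 days alone, the Aqp4 and Gjb2 calls were lost (adjusted p of 0.0678 and 0.0867).

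Both genes of the contact complex fell. Hepacam went from 396.5, 318.4 and 289.7 CPM to 119.2, 108.0 and 124.1 CPM (log2 change -1.52 ± 0.16, edgeR adjusted p = 1.34e-05). Mlc1 went from 877.8, 303.8 and 357.3 CPM to 185.7, 181.2 and 195.5 CPM (log2 change -1.45 ± 0.34, edgeR adjusted p = 0.00647). Sham replicate 1 stood far above the other sham libraries in Mlc1, and without it the fall was -0.82 (adjusted p = 0.0206). In that library the ependymal markers (2635 CPM against 1538 and 1607) and the microglia markers (1628 CPM against 461 and 396) were also the highest among sham, and their part in its Mlc1 level was not tested.

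**Figure D1:**
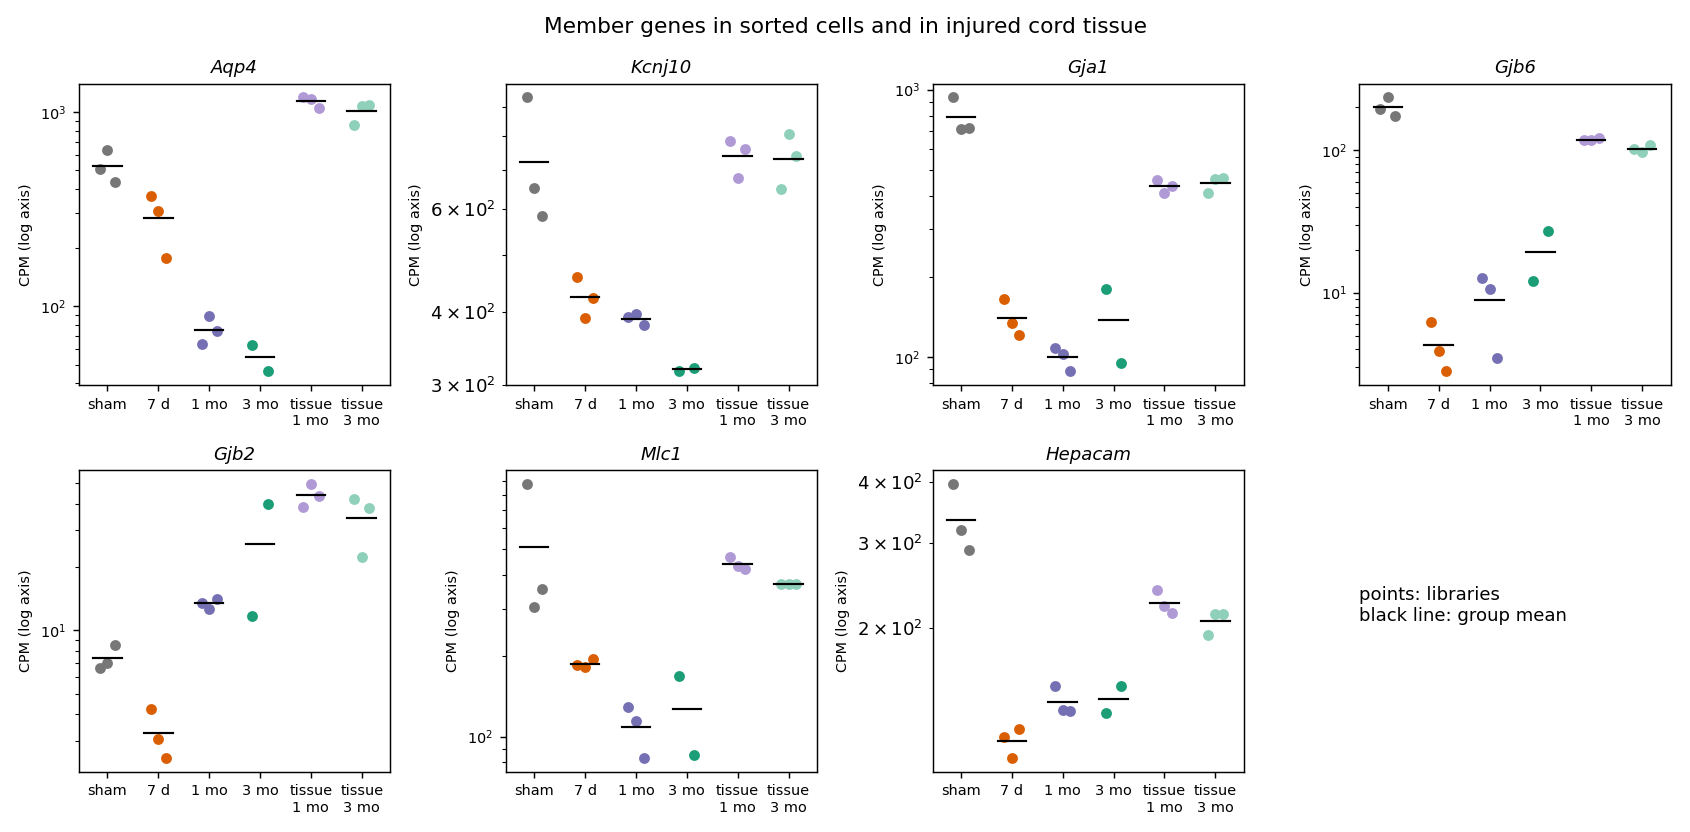
CPM on a log axis (y) of each gene in every sorted library (sham, 7 days, 1 month and 3 months after injury) and tissue library (1 and 3 months), with points for libraries and a black line for the group mean. The other 6 genes stay below sham at every time in sorted cells, while Gjb2 dips at 7 days to 3.26 CPM on average and stands above sham afterwards.

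At 1 month 6 of the 7 genes were still below sham, and Gjb2 was not. Against a background of 5.83% of tested genes that fell, 6 fell, and their libraries did not overlap sham (12.7% of all tested genes). The median log2 change over the 7 was -2.24, and over all tested genes -0.02. Aqp4 was now among the deepest falls, at 63.57, 88.68 and 74.77 CPM (log2 change -2.80 ± 0.26, edgeR adjusted p = 7.54e-06). Gja1 stood at 108.3, 102.6 and 88.48 CPM (log2 change -2.98 ± 0.23) and Gjb6 at 12.59, 10.70 and 3.49 CPM (log2 change -4.48 ± 0.44). Mlc1 stood at 129.4, 114.4 and 83.08 CPM, a log2 change of -2.24 ± 0.35, or -1.60 without sham replicate 1. Kcnj10 and Hepacam were the mildest, at log2 changes of -0.89 ± 0.18 and -1.25 ± 0.16, with edgeR adjusted p of 0.00336 and 0.000123. Gjb2 stood at 13.55, 12.63 and 14.09 CPM, above all 3 sham libraries, yet its log2 change of 0.86 ± 0.39 was not called (edgeR adjusted p = 0.177; 14.7% of all tested genes were non-overlapping and higher). Fibroblast and mural markers summed to 1735 to 1879 CPM in the same libraries, with 5 of 10 higher than sham, and their part in the Gjb2 level was not tested. None of these 7 verdicts changed under any alternative run for this comparison.

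At 3 months the same 6 genes were called lower, against 4.93% of tested genes that fell, and Gjb2 was called higher, against 6.78% that rose. None of the 7 overlapped sham (17.2% of tested genes were non-overlapping and lower, and 17.0% higher). The 2 libraries of this group differed between themselves in several of the genes. Aqp4 was at 63.28 and 46.18 CPM in replicates 1 and 3 (log2 change -3.27 ± 0.31 against sham, edgeR adjusted p = 6.45e-06), and Kcnj10 at 316.2 and 321.0 CPM (log2 change -1.18 ± 0.20). Hepacam, at 133.7 and 152.3 CPM, was lower by -1.23 ± 0.18. These 3 genes were close between the 2 libraries, and well under sham in both.

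In the connexins and Mlc1 replicate 3 stood apart from replicate 1. Gjb2 was at 11.75 CPM in replicate 1 and 39.61 CPM in replicate 3 (log2 change 1.80 ± 0.42, edgeR adjusted p = 0.0109), and without replicate 3 the change was 0.67 (adjusted p = 0.56), so the call rests on that library. Without replicate 1 it was 2.43 (adjusted p = 0.000807). Gjb6 was at 11.98 and 26.90 CPM (log2 change -3.37 ± 0.50, and -4.07 without replicate 3), and Gja1 went the other way, at 180.3 and 95.13 CPM (-2.52 ± 0.27). Mlc1, at 168.5 and 85.51 CPM, fell by -2.01 ± 0.40 on the log2 scale (edgeR adjusted p = 0.00357), by -1.62 without replicate 3, where its call was lost (adjusted p = 0.069), and by -1.38 without sham replicate 1. Beside this, replicate 3 held fewer ependymal marker counts than replicate 1 (466 against 1101 CPM), more microglia marker counts (11470 against 8881 CPM) and about as many fibroblast and mural marker counts (1355 against 1372 CPM). Both libraries lay above the 148.1 to 602.2 CPM of fibroblast and mural markers in sham, with 4 of 10 called higher. The part of these markers in the Gjb2 rise and in the difference between the 2 libraries was not tested. In a fit of sham and 3 months alone the calls of Gjb2, Mlc1 and Kcnj10 were lost (adjusted p of 0.0846, 0.0747 and 0.0754).

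**Figure D2:**
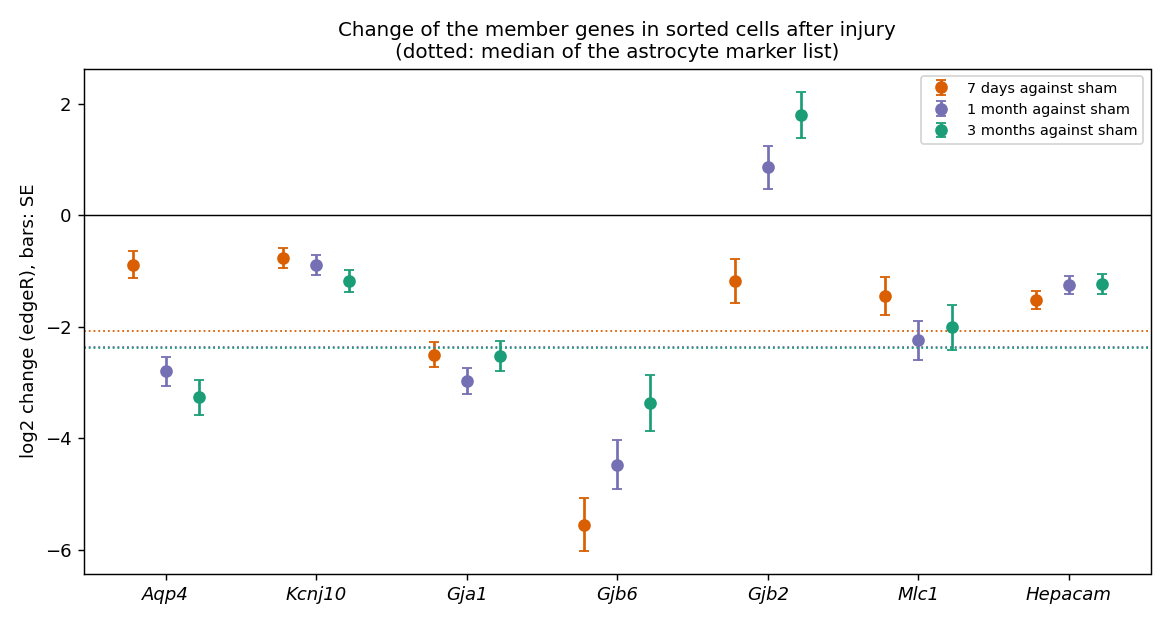
Log2 change of each gene in sorted cells against sham (y; points, with SE bars) at 7 days, 1 month and 3 months, with a dotted line at the median of the 15 astrocyte markers for each time. Gjb6 lies lowest at 7 days (-5.55), Aqp4 moves from -0.89 to -3.27, Kcnj10 and Hepacam stay above all 3 dotted lines, and Gjb2 ends above 0.

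Set beside the 15 astrocyte markers of the same libraries, whose median log2 change against sham was -2.08 at 7 days, -2.36 at 1 month and -2.39 at 3 months, the genes spread to both sides. Gjb6 fell further than 14 of the 15 markers at 7 days and at 1 month, and further than 13 at 3 months. Kcnj10 fell less than 12, 12 and 11 of them at these times, and Hepacam less than 10, 11 and 10. Aqp4 changed places in this order: it fell less than 12 of 15 markers at 7 days and further than 12 of 15 at 3 months. These are descriptions of the same libraries, with no test between a gene and the markers.

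The step from 7 days to 1 month was tested on its own, in the same fit. Aqp4 fell (log2 change -1.91 ± 0.25, edgeR adjusted p = 0.00143), where 1.09% of tested genes fell, and Gjb2 rose (2.04 ± 0.40, adjusted p = 0.0139), where 1.52% rose. The Gjb2 call held without 7-day replicate 1 and was lost without any other of the 6 libraries, at log2 changes of 1.87 to 2.08 and adjusted p of 0.0556 to 0.105. Gjb6 was at a log2 change of 1.06 ± 0.40 (adjusted p = 0.211), with overlapping libraries, and Mlc1 at -0.78 ± 0.33 (adjusted p = 0.277). Kcnj10, Gja1 and Hepacam were not called either. Without the low-count filter edgeR did call Gjb6 (adjusted p = 8.4e-05) and Mlc1 (0.00328). In a fit of the 2 groups alone it called Mlc1 (0.002) and Gja1 (log2 change -0.47, 0.026), so these verdicts depend on the processing. From 1 to 3 months none of the 7 was called by edgeR or DESeq2, with log2 changes of -0.47 to 1.11, in a comparison with 94 calls among all genes (0.387%). At an unadjusted p under 0.05 by edgeR, 2859 genes passed there, Gjb6 and Gjb2 among them. Without the low-count filter edgeR called Gjb6 (adjusted p = 0.000503).

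The make-up of the connexins is clearer from ratios of counts within a library, which carry no scaling between libraries and whose gene lengths cancel when groups are compared. In sham sorted cells there were 3.04 to 4.85 Gja1 counts for each Gjb6 count. That ratio was 26.5 to 43.1 at 7 days, 8.61, 9.59 and 25.3 at 1 month, and 15.1 and 3.54 in replicates 1 and 3 at 3 months. The libraries at 7 days thus all lay above sham, while 3-month replicate 3 was inside the sham range. Gjb2 made 0.0300 to 0.0493 counts for each Gjb6 count in sham, 0.685 to 0.881 at 7 days, 1.08, 1.18 and 4.03 at 1 month and 0.982 and 1.47 at 3 months. Every injured sorted library therefore lay above every sham library in this ratio. Gjb6 was 46.5-, 22.4- and 10.3-fold lower than sham at the 3 times, and Gjb2 stood at 0.441, 1.82 and 3.48 times its sham level, with no call at 1 month and a 3-month call that rests on replicate 3. In tissue the 2 ratios were 3.52 to 4.8 and 0.233 to 0.423.

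**Figure D3:**
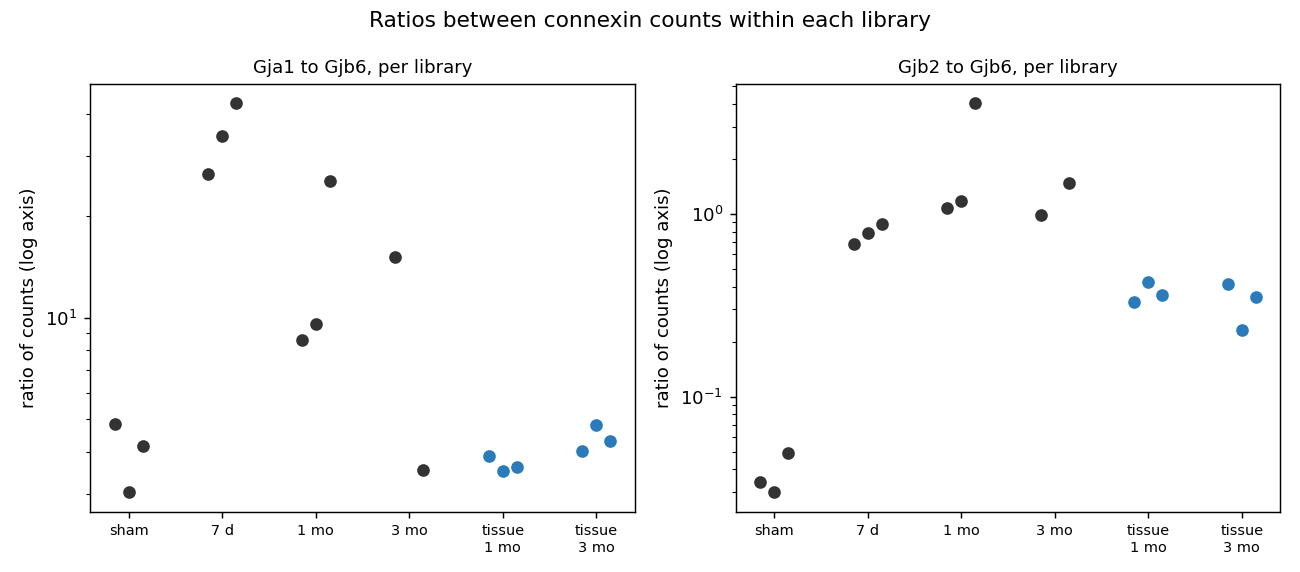
Ratio of counts within each library (y, log axis; 1 point per library) of Gja1 to Gjb6 and of Gjb2 to Gjb6 in sorted groups (dark) and tissue groups (blue). The Gjb2 to Gjb6 ratio is under 0.05 in all sham libraries and above 0.6 in all sorted libraries after injury, with tissue between them.

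Levels of different genes were set against each other per kilobase of merged exon. In sham sorted cells the order by CPM per kb was Mlc1 (183.1 ± 113.2, SD, n = 3), Kcnj10 (133.7), Hepacam (100.1), Aqp4 (84.75), Gja1 (76.93), Gjb6 (74.8) and Gjb2 (3.07). Each neighbour in that order overlapped the next except Gjb6 and Gjb2. At 7 days Kcnj10 led at 78.37 CPM per kb, Mlc1 followed at 66.93 and Aqp4 at 45.63, and Gjb6 (1.61) and Gjb2 (1.35) were last and overlapped. At 1 month Kcnj10 (72.04) stood clear of Hepacam (42.10) and Mlc1 (38.90), and at 3 months Kcnj10 (58.92) overlapped Mlc1 (45.35). In tissue Aqp4 had the highest mean (182.1 ± 11.6 at 1 month, clear of Mlc1, and 161.5 ± 20.9 at 3 months, overlapping Kcnj10) and Gjb2 last (18.22 and 14.26), with Hepacam, Gja1 and Gjb6 between 38.25 and 67.44. The place of Gja1 depends on the length used: its merged exons span 10257 bases and its longest coding transcript 3182, and per kb of the latter, an alternative chosen after the data were seen, it moved from the fifth to the first place in sham (248.0), overlapping Mlc1.

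Whole injured cord was higher than sorted cells in all 7 genes at 1 month, in a joint fit of both tables over the 23259 genes tested. Sorted cells were lower by 7 of 7 calls, where 28.2% of tested genes were lower. The log2 differences, sorted minus tissue, were -4.01 ± 0.16 in Aqp4, -3.81 ± 0.40 in Gjb6, -2.22 ± 0.20 in Gja1, -2.11 ± 0.23 in Mlc1, -1.81 ± 0.36 in Gjb2, -1.03 ± 0.09 in Kcnj10 and -0.78 ± 0.09 in Hepacam, with edgeR adjusted p of 6.6e-09 to 0.00129. No sorted library reached any tissue library in any of the genes (36.3% of tested genes were non-overlapping and lower). At 3 months 6 were lower (28.2% of tested genes), by -4.37 ± 0.20 in Aqp4 down to -0.71 ± 0.10 in Hepacam, with no overlap in these 6 (38.8% of tested genes). Gjb2 was at -0.61 ± 0.40 (edgeR adjusted p = 0.219) and overlapped, but was called lower without sorted replicate 3, at -1.73 (adjusted p = 0.00153). The 2 kinds differ in genotype, digestion, myelin removal and sorting as well as in cell make-up, which cannot be told apart here, and a shared spread for both kinds may make these SEs too small.

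Within tissue the 7 genes differed little between 1 and 3 months. Aqp4 was at 1189, 1163 and 1053 CPM at 1 month and 856.7, 1074 and 1089 CPM at 3 months, and the groups overlapped (log2 change -0.17 ± 0.11, edgeR adjusted p = 0.311). Kcnj10 (741.4 and 732.4 CPM on average) and Gja1 (435.1 and 446.6 CPM) were at log2 changes of -0.02 ± 0.10 and 0.04 ± 0.08, with adjusted p of 0.924 and 0.781. Mlc1 was the only call, where 8.01% of tested genes fell: it went from 468.9, 432.8 and 422.3 CPM to 372.8, 371.4 and 370.4 CPM (log2 change -0.25 ± 0.06, edgeR adjusted p = 0.0408), and the call was lost without any library but 3-month replicate 1, at -0.20 to -0.28 and adjusted p of 0.0707 to 0.18. Gjb6 was lower in 3 of 3 libraries, at 117.1 to 120.5 against 96.4 to 108.7 CPM, and not called (log2 change -0.21 ± 0.06, edgeR adjusted p = 0.0614). Without 3-month replicate 1 Gjb6 was called (edgeR adjusted p = 0.0434), in a run that called 5980 genes where the main fit called 2889. Hepacam was also lower without overlap (-0.12 ± 0.07, adjusted p = 0.279), against 19.8% of all tested genes. Over the same interval the summed microglia markers went from 4495 to 6119 CPM down to 1860 to 2755 CPM, with 9 of 12 called lower. The summed astrocyte markers went from 15020 to 16490 CPM to 12830 to 13460 CPM with 3 of 15 called lower, Gfap by -0.45 ± 0.09 on the log2 scale, and 5 of 9 tested neuron markers were called higher. The part of these shifts in the Mlc1 fall was not tested. Whether the change from 1 to 3 months differed between sorted cells and tissue was tested directly, and none of the 7 was called by edgeR or DESeq2 (edgeR adjusted p of 0.112 for Kcnj10 to 0.83 for Hepacam; 14.0% of tested genes were called, and 6720 had an unadjusted p under 0.05, Kcnj10, Gjb6 and Gjb2 among them). Single libraries moved some of these differences. Gjb2 was at 1.81 without sorted 3-month replicate 1 and Gja1 at 0.74 without sorted 3-month replicate 3, each leaving 1 library in that group. Kcnj10 was called without tissue 3-month replicate 1 (-0.43, edgeR adjusted p = 0.0332), in a run with 3588 calls over all genes.

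In the cultures the genes were first set beside the targets. Libraries labelled Zeb2os knockdown held Zeb2os at 3.14 and 4.32 CPM and their controls at 3.80 and 5.82 CPM, overlapping (log2 change -0.36 ± 0.35, edgeR adjusted p = 0.735), so the label is not borne out by a lower Zeb2os at this depth, and because Zeb2os lies inside Zeb2 on the opposite strand and the strand setting of the counting is not given, its counts are uncertain. Libraries labelled Zeb2 knockdown held Zeb2 at 16.15 and 23.24 CPM against 133.6 and 147.0 CPM in their controls (log2 change -2.83 ± 0.33), yet edgeR called no gene at all in that set (0.0% of 17609), Zeb2 included (adjusted p = 0.999; 683 genes at an unadjusted p under 0.05, and 33 calls by DESeq2). Fibroblast and mural markers summed to 10230 and 10640 CPM in Zeb2os controls and 12320 and 12400 CPM in their knockdown, and astrocyte markers to 1534 and 1634 against 778 and 833 CPM. For Zeb2 the fibroblast and mural sums were 8000 and 14920 CPM in controls and 5345 and 6840 CPM in knockdown, and the astrocyte sums 932 and 1464 against 1382 and 1685 CPM. In neither set did edgeR call any of the 9 fibroblast and mural markers tested, and the part of these sums in the values below was not tested.

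In the libraries labelled Zeb2os knockdown none of the 7 was called by edgeR, where 39 of 20741 genes were (0.188%; 2424 at an unadjusted p under 0.05, with Aqp4, Kcnj10 and Mlc1 among them), although 5 were lower without overlap (23.4% of all tested genes). Kcnj10 was at 73.02 and 125.0 CPM in controls and 34.23 and 30.80 CPM in knockdown (log2 change -1.61 ± 0.27, edgeR adjusted p = 0.0641). Aqp4 was at 122.8 and 170.2 against 61.09 and 76.29 CPM (log2 change -1.09 ± 0.24, edgeR adjusted p = 0.127). Mlc1 was at 98.95 and 90.64 against 59.50 and 54.93 CPM (log2 change -0.73 ± 0.20, adjusted p = 0.206). DESeq2 called all 3 lower, with adjusted p of 5.38e-06, 0.00191 and 0.0406, among 551 calls over all genes, so their calls depend on the tool. Leaving out a control library leaves 1 control. Without control replicate 1 the log2 changes were -1.94 in Kcnj10, -1.3 in Aqp4 and -0.66 in Mlc1. Without control replicate 2 they were -1.16, -0.83 and -0.78. Gja1 (-0.22 ± 0.21), Hepacam (-0.31 ± 0.20) and Gjb2 (0.12 ± 0.24) were closer to 0 and not called by either tool. Gjb6 (-0.13 ± 0.68, from 22 to 266 counts) was not called by edgeR, and DESeq2 gave it no adjusted p. Beside them the astrocyte markers had a median log2 change of -0.71 with 1 call of 15, Gfap, at -1.55 ± 0.23 (edgeR adjusted p = 0.0429), and Kcnj10 was lower than all 15 of them.

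In the Zeb2 set none of the 6 genes tested was called by edgeR or DESeq2. Kcnj10 was at 96.89 and 59.75 CPM in controls and 133.5 and 185.7 CPM in knockdown (log2 change 1.03 ± 0.36). Mlc1 was at 102.7 and 94.76 against 231.4 and 142.3 CPM (0.92 ± 0.34), and Hepacam at 70.51 and 38.44 against 73.15 and 86.15 CPM (0.55 ± 0.37). These 3 were higher without overlap, as were 15.3% of tested genes, and Aqp4 alone was lower without overlap, at 344.3 and 180.6 against 156.6 and 178.3 CPM (-0.65 ± 0.39); 16.5% of tested genes were. All had edgeR adjusted p = 0.999, and Kcnj10 and Mlc1 an unadjusted p under 0.05. Without knockdown replicate 2, which leaves 1 knockdown library, the log2 change of Mlc1 was 1.22. Gja1 overlapped (-0.02 ± 0.49), and Gjb2 was at 1.84 and 2.84 against 0.624 and 8.64 CPM, the 2 knockdown libraries lying on either side of the controls. Gjb6 was too low to test, with 0 counts in both controls and 5 and 7 counts in knockdown. A floor of 3 counts was 0.0459 and 0.0597 counts per M of the unscaled totals of the 2 controls. The 2 knockdowns were not tested against each other, since the tables have their own controls and differ in the start of selection.

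**Figure D4:**
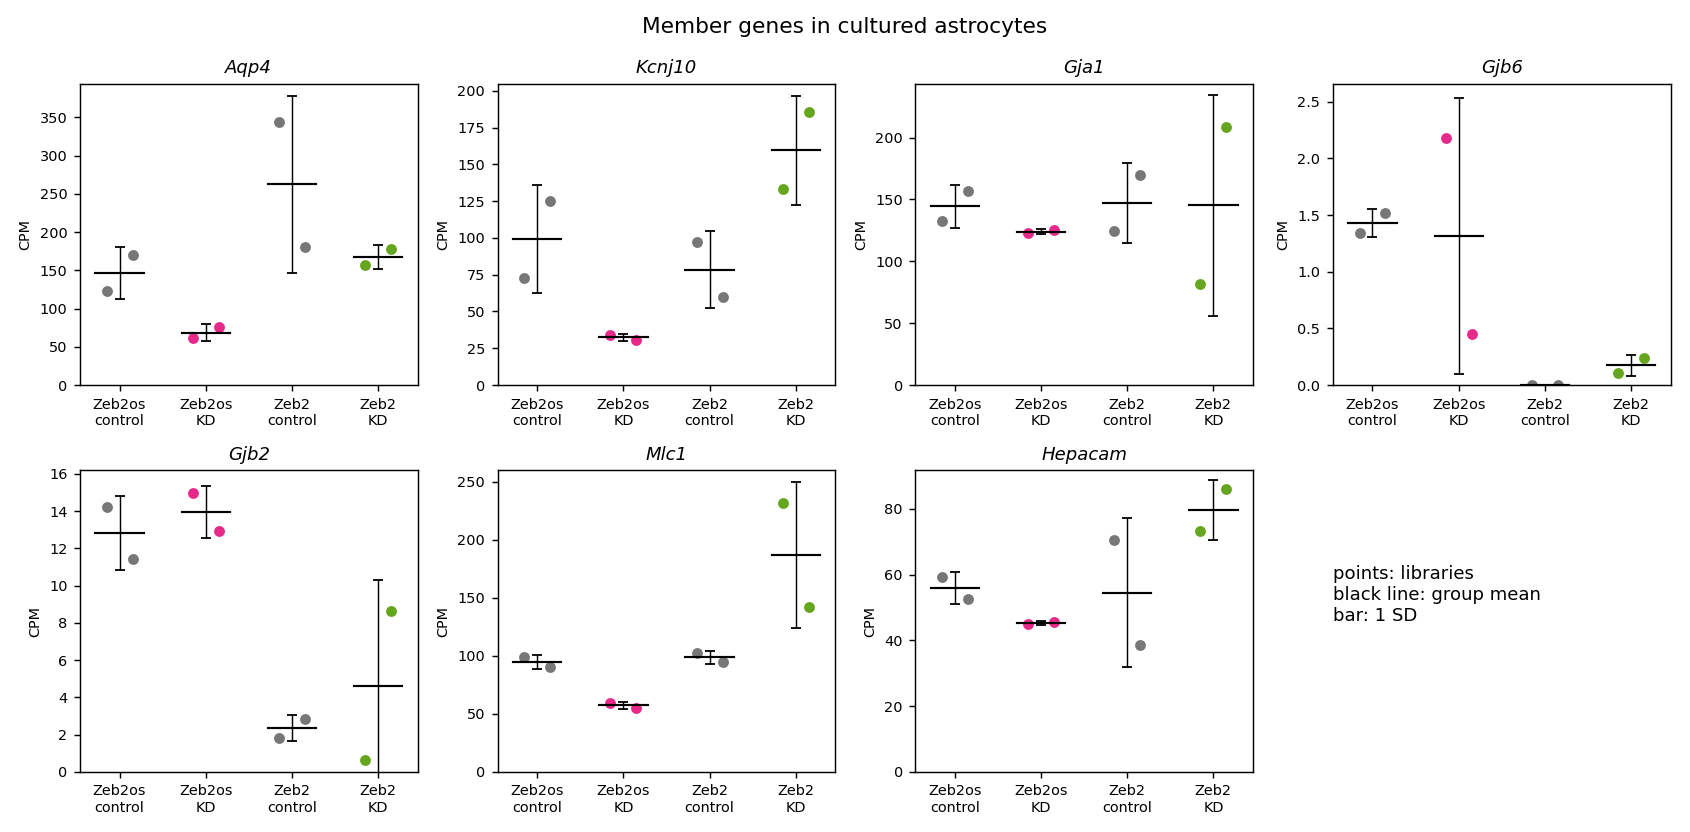
CPM (y, from 0) of each gene in the cultured astrocyte libraries of the Zeb2os set and the Zeb2 set (points: libraries; black line: mean; bars: 1 SD, 2 libraries per group; KD: knockdown). Aqp4, Kcnj10, Mlc1, Hepacam and Gja1 lie below both controls in the libraries labelled Zeb2os knockdown, and Gjb6 is at or under 2.18 CPM in every culture.

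Other genes of the same structures were read from lists. Over all tested genes 8.41% fell and 9.87% rose at 7 days, 5.83% and 6.23% at 1 month, and 4.93% and 6.78% at 3 months, with median log2 changes of -0.06, -0.02 and -0.10. Of 13 genes of the dystrophin complex, which holds aquaporin-4 in the endfoot membrane, 3 fell and 3 rose at 7 days, 2 fell and 1 rose at 1 month, and 1 fell and 2 rose at 3 months (median log2 changes 0.14, 0.19 and 0.05). Dtna, which encodes a dystrobrevin, fell from 147.2 ± 49.6 to 66.45 ± 6.55 CPM (SD, n = 3; log2 change -1.15 ± 0.21, edgeR adjusted p = 0.00124), while Sntb1, a syntrophin, rose by 1.39 ± 0.41. At 1 month Dtna (-0.98 ± 0.21) and Sntb1 (2.91 ± 0.43) were called in the same directions, and at 3 months Dtna (-1.44 ± 0.25) and Sntb1 (3.03 ± 0.45). In tissue from 1 to 3 months Agrn, the matrix ligand agrin of dystroglycan, fell by -0.33 ± 0.07 on the log2 scale, and Utrn, the dystrophin relative utrophin, rose by 0.43 ± 0.10.

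Of 14 genes of potassium and ion handling, 6 fell and 1 rose at 7 days (median log2 change -0.54), 5 fell and 1 rose at 1 month (0.10), and 5 fell at 3 months (-0.32). Kcnk1, a two-pore-domain potassium channel, stood at 181.8 ± 23.5 CPM in sham and 29.05 ± 7.77 CPM at 7 days, a fall of -2.64 ± 0.22 on the log2 scale (edgeR adjusted p = 1.69e-06), and Slc4a4, the sodium bicarbonate cotransporter, which is also among the astrocyte markers, fell by -2.10 ± 0.23. Among 6 partners of Mlc1 and Hepacam 4 fell and 1 rose at 7 days (median log2 change -0.78), and 3 fell at 1 month (-0.49) and at 3 months (-0.63). Gpr37 and Gpr37l1, receptors linked to the Hepacam complex, fell at 7 days by -3.43 ± 0.30 and -1.41 ± 0.17, and Clcn2, the ClC-2 gene, by -0.95 ± 0.27.

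Of 20 other connexins and pannexins 12 could be tested in sorted cells. Panx1, a pannexin channel, rose at 7 days, 1 month and 3 months (log2 changes of 0.72 ± 0.19, 1.27 ± 0.20 and 0.79 ± 0.21). Panx2 fell at 7 days (-2.75 ± 0.85, edgeR adjusted p = 0.0337), from a low and uneven 6.987 ± 6.345 CPM in sham to 1.039 ± 0.646 CPM (SD). None of the other 10 was called at any time against sham. Among the 9 other aquaporins Aqp6 was called lower at 7 days and 1 month: its sham mean was 5.24 ± 3.27 CPM, and it had no count in any 7-day library. Of 7 junction partners of the connexins, Ctnnb1, beta-catenin, and Dbn1, drebrin, rose at 7 days by 1.07 ± 0.19 and 1.13 ± 0.18. In both culture sets edgeR called no gene of these 6 lists.

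Across the 11 sorted libraries the 7 genes were compared with each other and with 13756 other genes by Pearson's r of log2 CPM, as a description, since the libraries share groups and cell make-up. The highest r between members was 0.95, for Gjb6 and Hepacam, followed by 0.92 for Gja1 and Hepacam. Gjb2 had r of -0.67 with Aqp4, -0.46 with Mlc1 and 0.21 with its neighbour Gjb6, and was the member least like the others. The genes most like each member were Rida, Paqr8 and Ccdc136 for Aqp4 (r of 0.946 to 0.970), Dixdc1, Kif19a and Lrrc8a for Kcnj10 (0.958 to 0.969), and Rfx4, Slc39a12 and Slc25a18 for Gja1 (0.981 to 0.994). For Gjb6 they were Gabrb1, Bbs2 and Taf1a (0.974 to 0.977), for Gjb2 Mira, Gm12992 and Srsf4 (0.933 to 0.957), for Mlc1 Rcn2, Gm19935 and Gm45396 (0.984 to 0.985), and for Hepacam Gpld1, Sparcl1 and Kcnk1 (0.980 to 0.987). Gm19935 and Gm45396 had nearly the same values in every group and may be the same transcript listed under 2 identifiers.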

How the data were processed

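The authors deposited 4 tables of raw counts (whole numbers, 1 row per gene). The submitters' processing notes name TopHat2 2.1.0, Cufflinks 2.2.1, FastQC, DESeq2 and the build mm10 without saying what each did. How reads were counted, on which annotation and with which strand setting is not given in the sources used here, but the labels name a kit that marks strand. Total counts were 15.4 to 158.1 M per library. Each table was filtered (edgeR filterByExpr, minimum count 10), scaled by TMM and tested two-sided by quasi-likelihood F test (edgeR 4.0.16, R 4.3.3), with Benjamini-Hochberg adjustment over all genes tested. The 11 sorted libraries shared a fit, and sorted and tissue libraries of 1 and 3 months were also fitted jointly. CPM use TMM-scaled totals, so values of different tables are each on their own scale; errors of log2 changes are SE. The test was also run on simulated counts of independent libraries, which does not cover an outlying library or technical replicates. Alternatives were DESeq2 1.42.0, RLE scaling, no low-count filter, fits of 2 groups, a replicate block and leaving out each library. The 7 genes and the lists were chosen with earlier results of these data known. All 7 genes are named in every comparison, with up to 3 called genes of each list with the largest change, of which some are not reported here. Lengths are from GENCODE M21, promoters from RefSeq (GRCm38.p6). Promoter windows were matched by symbol for 6 of 7 genes.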

Additional observations from a re-analysis of the deposited data

How the results depend on the processing

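Of 782 values of the 7 genes under the alternatives, 729 kept their side of the threshold, 29 lost a call, 24 gained a call and no called value changed direction. The DESeq2 test gave 4406 calls at 1 month and 4628 at 3 months against sham (edgeR 2927 and 2844), 1763 for 1 month against 7 days (633), 851 for 3 months against 1 month in sorted cells (94), 551 for Zeb2os (39; 3 of the 7 genes) and 33 for Zeb2 (0). With no filter the calls were 1406 (1 month against 7 days, 4 of the 7 genes), 749 (3 months against 1 month, sorted, 1 gene), 625 (Zeb2os set, 2 genes) and 142 (Zeb2 set), with 0 of the 7 in tissue. Fits of 2 groups alone gave 885 calls and 4 of the 7 genes at 3 months against sham, 3560 and 4 genes for 1 month against 7 days, and 1277 for 3 months against 1 month. The replicate numbers showed no pairing of the sorted or tissue libraries (correlation of same-numbered libraries -0.04 to 0.08 and -0.27 to -0.01). With only 2 pairs the pairing could not be decided in either culture set. Same-numbered and other libraries were at -0.03 and 0.03 in the Zeb2os set, and at 0.39 and -0.39 in the Zeb2 set. As an alternative, a replicate block gave 506 calls in tissue with 0 of the 7 genes, 554 in the Zeb2os set with 2, and 80 in the Zeb2 set, and lost the 7-day Gjb2 call (adjusted p = 0.0643). Leaving out each library gave 2867 to 5504 calls at 7 days (4 to 7 of the 7 genes), 1727 to 3471 at 1 month (6), 1189 to 3540 at 3 months (5 to 7), 122 to 218 for 1 month against 7 days (1 or 2), 7 to 52 for 3 months against 1 month in sorted cells (0), 305 to 5980 in tissue (0 to 2), 20 to 4354 in the Zeb2os set (0 to 3), 2 to 804 in the Zeb2 set (0 or 1) and 1929 to 5120 for the difference in change between sorted cells and tissue (0 or 1). Without a 3-month sorted or a culture library its group holds 1 library, assumed to vary like the others. The cause of these shifts was not tested. The spread between sorted libraries (common biological coefficient of variation 0.63, tissue 0.137) and groups of 2 in culture limit what a missed call says, and Gjb6 and Gjb2 after injury rest on few counts.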
